A study of Mus musculus with 8 samples.

Results

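Rab genes encode small GTPases that sit on the membranes of vesicles and organelles. The set described here holds the 57 genes of a deposited table of 23309 genes whose symbol is Rab followed by a number and at most 1 letter. Of these, 47 reached the level needed for a test (1 FPKM or more in at least 4 of 8 libraries), and 10 did not. FPKM values are corrected for the length of the transcript and the size of the library, so levels of different genes can be set side by side. Particular attention went to 7 genes of regulated exocytosis, namely Rab3a, Rab3b, Rab3c, Rab3d, Rab27a, Rab27b and Rab37.

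The RNA came from N134 cells, a mouse cell line (strain C57BL/6) from a pancreatic beta cell tumor, which the series calls a pancreatic neuroendocrine tumor line. In 4 libraries, numbered 5 to 8, the cells overexpressed the microRNA miR-431 together with GFP (miR-431). In the 4 control libraries, numbered 1 to 4, they overexpressed GFP with miR-LacZ (miR-LacZ). The cells of both groups were actively growing and had been kept in the same medium with serum. The sources used here do not say whether a group's libraries came from separate cultures or clones, so the p-values reflect only how far these libraries scatter, which may be technical. The comparison sets miR-431 cells against miR-LacZ cells, in a study that names the RasGAP DAB2IP as the target of the microRNA.

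A Rab protein switches between a GDP-bound form, held in the cytosol by GDP dissociation inhibitors (GDI), and a GTP-bound form on a membrane, where it recruits effectors. Exchange factors load GTP, GTPase-activating proteins (GAPs) end the active state, and an escort protein brings each new Rab to the enzyme that attaches its lipid anchors. In beta cells Rab3 and Rab27 proteins lie on insulin granules and take part in their docking and release.

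The 2 mature arms of the microRNA are shown first, since any direct action on a Rab transcript would go through their seeds (bases 2 to 8, in capitals). Which arm the construct yields was not measured in these data. The sequences are those of RefSeq on GRCm38.p6, and both arms lie on the plus strand of chromosome 12.
mmu-miR-431-5p: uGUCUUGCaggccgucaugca
mmu-miR-431-3p: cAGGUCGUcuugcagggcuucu

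Perfect matches to the 7 seed bases were searched on the sense strand of the 3′ UTRs of GENCODE M21 transcripts, with 1 transcript for each gene. A match to the 5p arm reads GCAAGAC, and with a further A at its 3′ end it is an 8mer. All 57 Rab genes had a 3′ UTR there. The 5p match was present in 3 of them, of which 2 were among the 47 tested (4.26%), against 741 of 11342 tested genes with a 3′ UTR (6.53%). The median 3′ UTR was 1951 bases long in the tested Rab genes and 1098.5 bases in all tested genes. The match to the 3p arm reads ACGACCT and was present in 1 Rab gene, against 162 of 11342 tested genes (1.43%). The 4 sites are shown with their flanks, with the matched bases in capitals.
Rab5b, 5p arm, 8mer: tgttctaggtGCAAGACAgtgaccttct
Rab22a, 5p arm: ccactcgtctGCAAGACcctgaaggagt
Rab30, 5p arm: ggatatcccaGCAAGACtaattctggtt
Rab33b, 3p arm, 8mer: ctcatttgtaACGACCTAtcactttagt

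These genes did not share a direction. Rab5b rose and Rab22a fell, with the values given further on. Rab33b, at 14.5 ± 1.61 FPKM in miR-431 and 12.5 ± 1.84 in miR-LacZ cells (SD, n = 4 each), did not pass the test (log2 fold change 0.21, limma adjusted p = 0.189). Rab30 lay below the level tested, at 0.778 ± 0.279 and 0.595 ± 0.124 FPKM in miR-431 and miR-LacZ cells. No exocytosis Rab had a match in the 3′ UTR searched. A match is a sequence feature and not a shown site of binding.

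Libraries 1 and 5 stood apart from the other 6 before any result on Rab genes. Among genes below 0.1 FPKM in both of a pair of libraries, the commonest ratio (within 0.02 on the log2 scale) was shared by 18.5% to 23.8% of genes in pairs of the other 6. It was shared by 1.78% to 2.41% in pairs of 1 or 5 with those 6, and by 8.79% in the pair of 5 and 1. Results are therefore also given without these 2 libraries where that ends a call. This covers the tested Rab genes, Dab2ip and up to 4 called genes for each list of Rab regulators and effectors. Other called genes named here, such as Unc13b, Rabl5 and the cell type markers, were not followed through that fit. Summed FPKM were 521889 to 625005 in miR-431 and 541979 to 612976 in miR-LacZ libraries, and read depth is not known. Mir431 was at 18110 FPKM or more in each miR-431 library and listed at 0 in every miR-LacZ library. Dab2ip, the gene named as the target, stood at 47.5, 57.2, 64.2 and 49.1 FPKM in miR-431 libraries, against 79.1, 79.1, 72.2 and 62.7 FPKM in miR-LacZ libraries, with a small overlap (log2 fold change −0.42, limma adjusted p = 0.0236). That call ended when any of miR-431 5 and 8 and miR-LacZ 1 and 2 was omitted (adjusted p up to 0.0686), without libraries 1 and 5 (−0.33, limma adjusted p = 0.108) and once the local chromosomal median was subtracted (−0.31, limma adjusted p = 0.115). All 10 beta cell markers were expressed, with summed levels of 23020 to 36710 FPKM in miR-431 and 27360 to 44440 in miR-LacZ libraries, and 3 of them (Ins1, Pdx1 and Nkx6-1) were lower in miR-431. Of 6 acinar markers 1 was tested and fell (Cela1), and 2 (Amy2a5 and Ptf1a) were at 0 throughout. Their summed level was 0.101 to 0.383 FPKM in miR-431 and 1.09 to 3.07 in miR-LacZ libraries. Of 4 fibroblast markers 1 was tested and fell (Pdgfra), with Col3a1 at 0 throughout and a summed level of 0.508 to 0.695 FPKM in miR-431 against 1.81 to 2.85 FPKM in miR-LacZ libraries. Of 4 endothelial markers 1 was tested and rose (Plvap). Their summed level was 1.40 to 2.86 FPKM in miR-431 against 0.564 to 0.763 FPKM in miR-LacZ libraries. Cela1 and Pdgfra reached 1 FPKM only in miR-LacZ libraries, and Plvap only in miR-431 libraries. Each of these genes thus met the level for a test only through the group in which it was high. Of 3 alpha cell markers 2 were tested, of which Irx2 rose (12.2 ± 2.12 FPKM in miR-431 and 6.34 ± 1.55 in miR-LacZ libraries, 0.86, limma adjusted p = 0.00301) and Gcg did not pass, with a summed level of 53.3 to 184 FPKM in miR-431 against 51.2 to 158 FPKM in miR-LacZ libraries. Neither delta cell marker was tested, and their summed level was 0.128 to 0.373 FPKM in miR-431 against 0.588 to 1.86 FPKM in miR-LacZ libraries, with Sst below every miR-LacZ library in each miR-431 library. Ppy, the marker of PP cells, was at 5.77 to 32.6 FPKM in miR-431 and 0.814 to 9.13 in miR-LacZ libraries and did not pass (limma adjusted p = 0.0655). No duct marker reached the level tested, and Cd68, the 1 of 4 leukocyte markers tested, did not pass. The part of these marker genes in the Rab results was not tested. In bulk RNA, fewer cells of a type and less RNA per cell cannot be told apart.

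Rab genes spanned a wide range of levels in N134 cells. Averaged over all 8 libraries, 5 lay at 100 FPKM or more, 26 between 10 and 100, 16 between 1 and 10, and 10 below 1 FPKM. Rab7, which directs late endosomes to lysosomes, was the highest at 334 ± 23.9 FPKM in miR-431 and 285 ± 48.7 in miR-LacZ cells. It was followed by the endoplasmic reticulum and Golgi genes Rab2a (means of 152 and 158 FPKM in miR-431 and miR-LacZ cells), Rab1b (123 FPKM in miR-431, 145 FPKM in miR-LacZ) and Rab1 (119 FPKM in miR-431, 148 FPKM in miR-LacZ). The fifth was the early endosome gene Rab5c (113 FPKM in miR-431, 133 FPKM in miR-LacZ). Rab7 lay above the rest in every library. Rab2a lay above Rab1b in every miR-431 library, at 139 FPKM or more against 129 FPKM or less, but their ranges overlapped in miR-LacZ libraries, and those of Rab1b and Rab1 overlapped in both groups. These 5 genes held 43.2% of the summed Rab level on average. The total of the 57 genes was 1956 to 2036 FPKM in miR-431 and 1812 to 2136 in miR-LacZ libraries, so the groups overlapped.

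By role, the 8 genes of regulated exocytosis (the 7 above and Rab26) held 10.3% to 12.5% of that total in miR-431 and 8.93% to 11.1% in miR-LacZ libraries. Genes of the endoplasmic reticulum and Golgi held 27.5% to 32.4% in miR-431 and 29.4% to 34.0% in miR-LacZ libraries. Genes of early and recycling endosomes held 26.9% to 27.95% in miR-431 and 28.25% to 29.5% in miR-LacZ libraries. These ranges, a narrow gap apart, were the only ones by role that did not overlap. Genes of late endosomes and lysosomes held 17.5% to 20.9% in miR-431 and 15.2% to 19.9% in miR-LacZ libraries. Shares of the same total depend on each other, and the separation was not tested.

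Among the 6 tested exocytosis Rabs, Rab27a rose (16.7%, against 15.4% of all tested genes) and the other 5 did not pass the threshold. Rab27a (chromosome 9, 72892671 to 72945399, mm9), whose product tethers secretory granules through several effectors, stood at 59.1, 63.2, 57.5 and 70.6 FPKM in miR-431 libraries 5 to 8, against 38.1, 41.3, 38.8 and 47.2 FPKM in miR-LacZ libraries 1 to 4. Every miR-431 library lay above every miR-LacZ library, and the mean was 151% of the control level. The log2 fold change, taken here and throughout on log2(FPKM + 1), was 0.59 (SE 0.099, limma adjusted p = 0.00201). The two-sided exact permutation p was 0.0286, the smallest that 4 libraries against 4 allow. The call held without each library in turn and without libraries 1 and 5. The median of the neighbouring genes on chromosome 9 was shifted by 0.26 in the same direction, and with that median removed the fold change was 0.33 (limma adjusted p = 0.0416).

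Its close relative Rab27b lay at 0.00443 to 0.0158 FPKM in miR-431 and 0.00777 to 0.0213 in miR-LacZ libraries. Rab27a thus made up at least 99.9% of the Rab27 level in every library of both groups.

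Rab3a (chromosome 8, 73278577 to 73284820), the main Rab3 of neurons and a regulator of vesicle release, stood at 64.4, 72.6, 75.9 and 68.8 FPKM in miR-431 libraries, against 70.9, 73.1, 69.4 and 68.7 FPKM in miR-LacZ libraries. The values of the groups were interleaved. The log2 fold change was −0.005 (95% interval −0.18 to 0.17, limma adjusted p = 0.972), and the exact permutation test gave p = 1. Rab3a held 72.0% to 73.5% of the summed level of the Rab3 genes in miR-431 and 71.7% to 75.4% in miR-LacZ libraries.

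Rab3d (chromosome 9, 21711954 to 21722565), found on large secretory granules of exocrine and endocrine cells, was next among the Rab3 genes, at 13.6, 17.3, 15.5 and 16.4 FPKM in miR-431 and 14.2, 15.9, 13.7 and 17.8 in miR-LacZ libraries. These ranges coincided (log2 fold change 0.03, 95% interval −0.21 to 0.26, limma adjusted p = 0.880, exact permutation p = 0.914). Rab3b (chromosome 4, 108551674 to 108644682) stood at 8.45, 8.67, 9.55 and 6.89 FPKM in miR-431 and 6.21, 5.63, 7.34 and 7.11 in miR-LacZ libraries. Library 8 fell among the controls, and Rab3b did not pass (0.31, SE 0.114, limma adjusted p = 0.0671, exact permutation p = 0.0857). Without miR-431 library 8 it did (0.39, limma adjusted p = 0.0366), and it also passed with array weights.

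Rab3c (chromosome 13, 110844395 to 111070414) was the lowest Rab3, at 1.77, 2.23, 2.43 and 1.92 FPKM in miR-431 and 2.69, 2.46, 3.05 and 2.22 in miR-LacZ libraries. The groups overlapped at their edges (−0.22, SE 0.109, limma adjusted p = 0.150, exact permutation p = 0.0857). Rab3c, Rab3b and Rab3d differ in level by more than their spread, and the order Rab3a, Rab3d, Rab3b, Rab3c was the same in all 8 libraries.

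Rab37 (chromosome 11, 114952744 to 115023554), a Rab of secretory granules, stood at 62.2, 79.8, 70.1 and 79.1 FPKM in miR-431 libraries, against 58.0, 69.8, 59.5 and 56.4 FPKM in miR-LacZ libraries. Library 2 lay within the miR-431 range, and the gene did not pass (0.25, SE 0.107, limma adjusted p = 0.105, exact permutation p = 0.0571). Its neighbours had a median log2 fold change of −0.24, and relative to them Rab37 passed at 0.49 (limma adjusted p = 0.00540). Without miR-431 library 5 it also passed (0.32, limma adjusted p = 0.0489), as it did with quantile normalization (0.28, limma adjusted p = 0.0480). Its locus in the table overlaps that of Cd300lf, as those of Rab3a and Rab3b overlap Mpv17l2 and 8030443G20Rik, and the sources do not say whether reads were counted by strand. At these levels Rab37, Rab3a and Rab27a were close to each other in miR-431 cells, with means of 72.8, 70.4 and 62.6 FPKM and overlapping ranges. In miR-LacZ cells Rab27a, at a mean of 41.3 FPKM, lay below Rab3a and Rab37 (70.5 and 60.9 FPKM) in every library. Rab27a accordingly held 24.9% to 29.0% of the summed level of the 7 exocytosis Rabs in miR-431 and 19.8% to 23.6% in miR-LacZ libraries, and Rab3a 28.2% to 32.9% in miR-431 and 34.5% to 37.3% in miR-LacZ libraries.

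**Figure D1:**
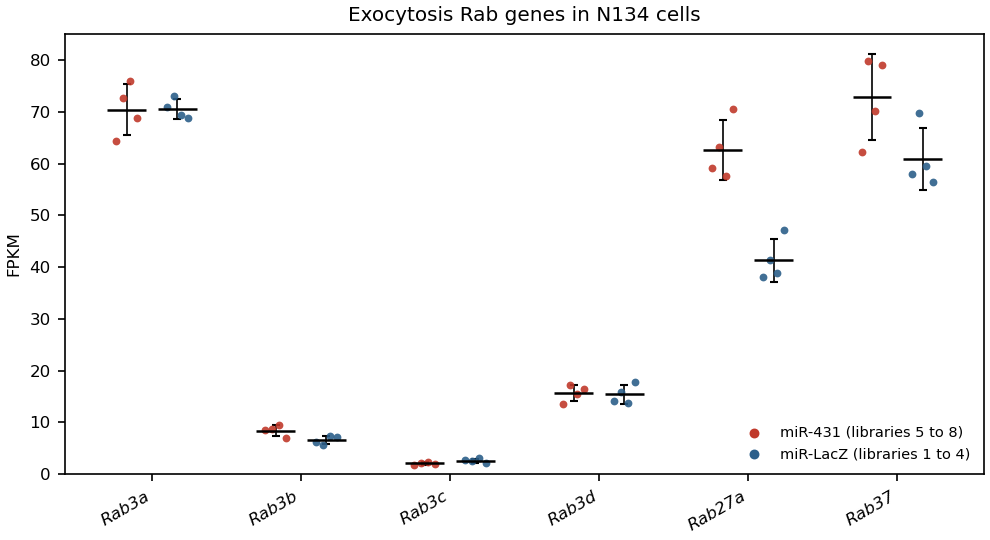
FPKM of 6 exocytosis Rab genes in each library (points), with group means (bars) and SD (whiskers), miR-431 left of miR-LacZ for each gene. Rab27a separates the groups (57.5 FPKM or more in miR-431, 47.2 FPKM or less in miR-LacZ), while Rab3a and Rab3d coincide. Rab27b, below 0.03 FPKM throughout, is not drawn.

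Across the 47 tested Rab genes, 11 passed the limma threshold, an adjusted p below 0.05 (23.4%), where 29.3% of all 11807 tested genes did. Of the 11, 7 rose, which is 14.9% of those tested against 15.4% of all genes, and 4 fell, which is 8.51% against 13.8%. The groups did not overlap for 13 Rab genes (27.7%, against 31.1% of all tested genes), the 11 called and Rab1b and Rab8a. The median log2 fold change was 0.09 in the tested Rab genes and −0.005 in all tested genes, and the median size of change was 0.23 and 0.22. The share of Rab genes called was thus somewhat below that of all genes, and their typical size of change was close to it. The 36 that did not pass had fold changes between −0.33 and 0.37.

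**Figure D2:**
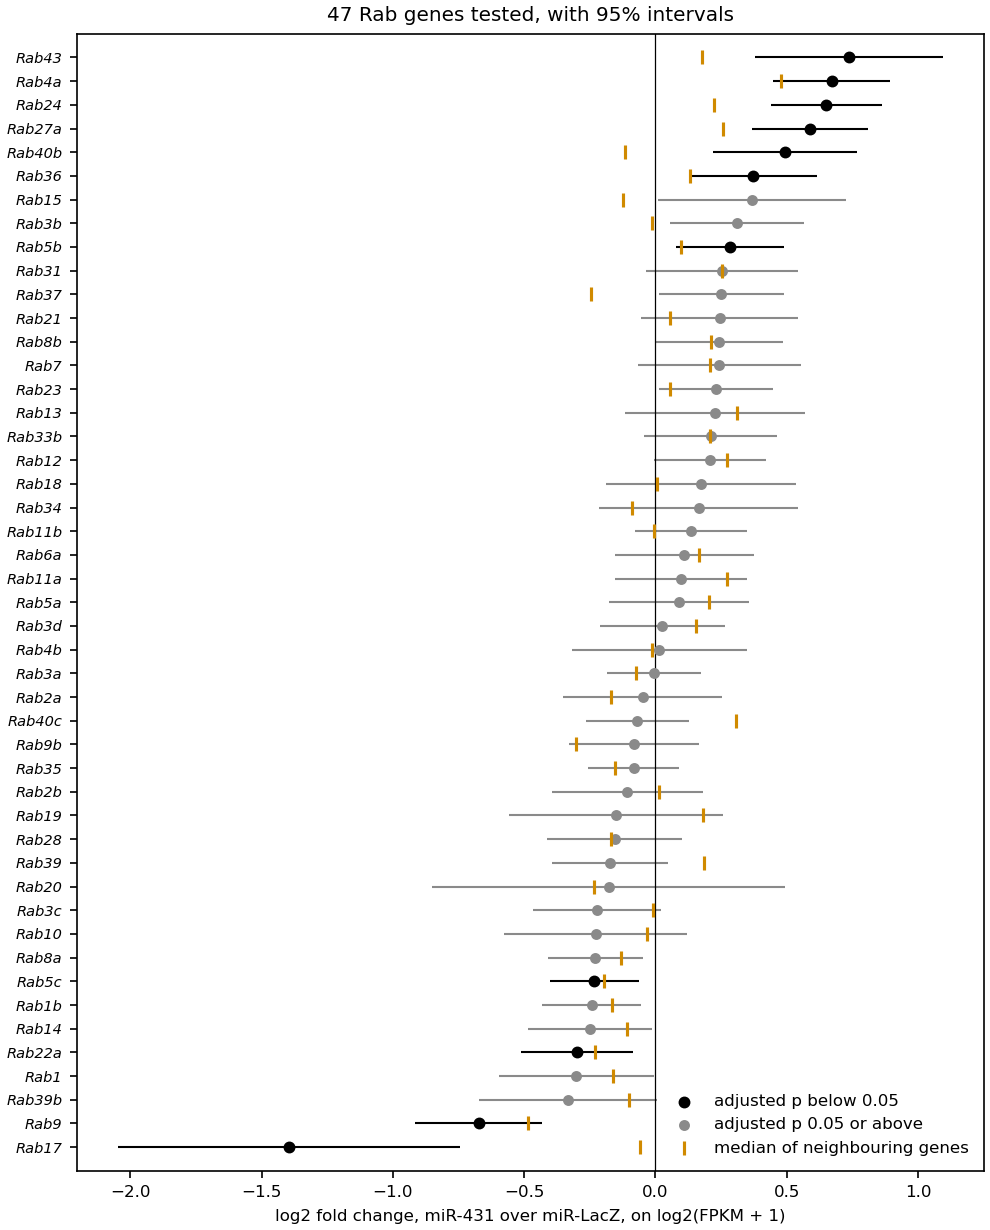
Log2 fold change (miR-431 over miR-LacZ, on log2(FPKM + 1)) of the 47 tested Rab genes with 95% intervals, black where the limma adjusted p was below 0.05. Upright ticks mark the median fold change of the neighbouring genes on the chromosome, which lies near the gene's own value for Rab5c, Rab22a and Rab9 and far from it for Rab17, Rab40b and Rab37.

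Rab17 had the largest change among the tested Rab genes. This gene (chromosome 1, 92854709 to 92866197), known from polarised epithelial cells, where it acts in recycling endosomes, stood at 1.51, 2.92, 4.54 and 2.48 FPKM in miR-431 libraries, against 6.04, 6.86, 15.9 and 8.67 FPKM in miR-LacZ libraries. Both groups varied several-fold within themselves, but no miR-431 library reached the lowest miR-LacZ library. The mean fell to 30.5% of the control level (log2 fold change −1.40, SE 0.293, limma adjusted p = 0.00632). Rab17 was the only Rab gene both called and changed at least 2-fold (2.13% of those tested, against 3.97% of all tested genes). Its call held in all 19 alternative fits, and its neighbours were shifted by −0.06. Rab25, another epithelial Rab, lay at 0.170 to 0.337 FPKM in miR-431 and 0.0599 to 0.223 in miR-LacZ libraries and was not tested.

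Among the other Rabs of early and recycling endosomes, Rab4a and Rab5b rose, and Rab5c and Rab22a fell. With Rab17, 2 of the 15 tested genes of this role rose and 3 fell. Of all tested genes 15.4% rose and 13.8% fell. Rab4a (chromosome 8, 126329895 to 126359191), a Rab of fast recycling, stood at 9.30, 11.4, 9.75 and 10.5 FPKM in miR-431 and 6.30, 6.70, 6.14 and 5.14 in miR-LacZ libraries, with no overlap (0.67, SE 0.0996, limma adjusted p = 0.000982). Its paralogue Rab4b did not differ beyond its spread (38.2 ± 6.64 FPKM in miR-431 against 37.7 ± 6.19 FPKM in miR-LacZ cells). Rab4a therefore made up 20.3% to 24.0% of the Rab4 level in miR-431 and 12.9% to 15.3% in miR-LacZ libraries. The genes around Rab4a on chromosome 8 had a median fold change of 0.48, and with that median removed its call ended (0.19, limma adjusted p = 0.126).

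The 3 Rab5 genes, which govern fusion of early endosomes, went different ways. Rab5b (chromosome 10, 128114238 to 128133324), which carries the 8mer shown above, stood at 52.1, 47.9, 57.1 and 50.2 FPKM in miR-431 and 45.5, 42.9, 44.1 and 37.2 in miR-LacZ libraries (0.28, SE 0.092, limma adjusted p = 0.0418). Rab5c (chromosome 11, 100576579 to 100599444) stood at 108, 114, 118 and 113 FPKM in miR-431 and 131, 137, 132 and 133.7 in miR-LacZ libraries (−0.23, SE 0.076, limma adjusted p = 0.0437). Neither gene's groups overlapped. Rab5a had means of 36.7 ± 4.03 and 34.6 ± 5.53 FPKM in miR-431 and miR-LacZ cells and did not pass (0.09, limma adjusted p = 0.602).

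Both Rab5 calls were close to the threshold. With a single library omitted, that of Rab5b ended in 7 of 8 fits (it held only when miR-LacZ 1 was omitted) and that of Rab5c in all 8, with limma adjusted p up to 0.1003 and 0.115. Both also ended without libraries 1 and 5 (0.0667 and 0.0902) and with the neighbouring median removed, where Rab5b stood at 0.19 and Rab5c at −0.04 (0.103 and 0.776). As shares of the Rab5 level, Rab5b held 24.4% to 27.1% in miR-431 and 18.5% to 21.2% in miR-LacZ libraries, and Rab5c 53.2% to 58.2% in miR-431 and 59.8% to 66.5% in miR-LacZ libraries.

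Rab22a (chromosome 2, 173485345 to 173527683), of early endosomes and with the 7-base match shown above, stood at 55.0, 52.5, 60.2 and 46.4 FPKM in miR-431 and 71.7, 63.3, 64.0 and 64.8 in miR-LacZ libraries (−0.30, SE 0.095, limma adjusted p = 0.0391). The groups did not overlap, but the call ended in 7 of 8 fits with a single library omitted (it held only when miR-431 7 was omitted, and adjusted p reached 0.111), without libraries 1 and 5 (0.102), and with quantile normalization (0.0613). Its neighbours were shifted by −0.23, and with their median removed it stood at −0.07 (limma adjusted p = 0.700). The recycling genes Rab11a, at 52.7 ± 6.65 and 49.2 ± 5.51 FPKM in miR-431 and miR-LacZ cells, and Rab11b, at 19.9 ± 1.34 FPKM in miR-431 and 18.1 ± 2.12 in miR-LacZ cells, did not pass. Nor did Rab14, Rab15, Rab20, Rab21, Rab31 or Rab35. With array weights Rab14, Rab15 and Rab31 passed. Rab14 also passed with a term for libraries 1 and 5 and without miR-431 5, and Rab15 without miR-LacZ 4 and with the neighbouring median removed.

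Of the 4 genes of late endosomes, Rab24 rose and Rab9 fell, where 15.4% of all tested genes rose and 13.8% fell. Rab24 (chromosome 13, 55420583 to 55423341), linked to late steps of autophagy, stood at 26.0, 30.6, 29.1 and 30.8 FPKM in miR-431 and 16.5, 20.6, 18.8 and 16.98 in miR-LacZ libraries, well apart (0.65, SE 0.095, limma adjusted p = 0.000900). It held in all 19 alternative fits, with 0.43 (limma adjusted p = 0.0124) where the neighbouring median of 0.22 was removed. Rab9 (chromosome X, 162895183 to 162917799), which carries receptors from late endosomes back to the Golgi, stood at 24.6, 24.2, 25.6 and 23.4 FPKM in miR-431 and 36.1, 35.7, 49.6 and 38.4 in miR-LacZ libraries (−0.67, SE 0.108, limma adjusted p = 0.00155). The miR-431 libraries lay within a narrow band below all controls. The genes around it were shifted by −0.49, and with their median removed its call ended (−0.19, limma adjusted p = 0.231). Its paralogue Rab9b, elsewhere on chromosome X among genes shifted by −0.30, stood at 5.65 ± 0.993 and 5.98 ± 0.0561 FPKM in miR-431 and miR-LacZ cells and did not pass (−0.08, limma adjusted p = 0.616). Rab7 did not pass either (0.24, SE 0.139, limma adjusted p = 0.215), except with quantile normalization (0.31, limma adjusted p = 0.0478).

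Among the 13 tested genes of the endoplasmic reticulum and Golgi, Rab43 and Rab36 rose and none fell at the threshold. Of all tested genes 15.4% rose and 13.8% fell. Rab43 (chromosome 6, 87738846 to 87761773), a Golgi Rab, stood at 12.3, 9.76, 12.03 and 9.41 FPKM in miR-431 and 7.63, 6.66, 6.43 and 4.12 in miR-LacZ libraries. This was the largest rise among the tested Rab genes (0.74, SE 0.160, limma adjusted p = 0.00760), and it held in all 19 alternative fits. Rab36 (chromosome 10, 74499833 to 74516845) stood at 9.55, 11.1, 12.5 and 9.83 FPKM in miR-431 and 8.12, 8.31, 8.98 and 6.84 in miR-LacZ libraries (0.37, SE 0.109, limma adjusted p = 0.0289). Its groups were separated by a small gap, and the call ended when any of miR-431 6 and 7 and miR-LacZ 2 and 4 was omitted (adjusted p up to 0.0767) and with the neighbouring median removed (0.24, limma adjusted p = 0.116).

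The highly expressed Rab1, Rab1b and Rab2a, which carry traffic between the endoplasmic reticulum and the Golgi, had fold changes of −0.30, −0.24 and −0.05 (limma adjusted p = 0.114, 0.0554 and 0.815), none past the threshold. Rab1b stood at 120, 128, 113 and 129 FPKM in miR-431 and 145, 156, 140 and 140 in miR-LacZ libraries, without overlap. It passed with a term for libraries 1 and 5 (limma adjusted p = 0.0365), with array weights and with no level filter, and Rab1 passed with that term (0.0184) and with array weights. Rab6a, of Golgi traffic, was at 45.2 ± 6.42 and 41.8 ± 5.44 FPKM in miR-431 and miR-LacZ libraries (0.11, limma adjusted p = 0.518). Its neuronal paralogue Rab6b lay below the level tested, at 1.34, 1.13, 0.840 and 1.37 FPKM in miR-431 and 0.480, 0.253, 0.343 and 0.617 in miR-LacZ libraries. With no level filter Rab6b passed (0.61, limma adjusted p = 0.00592). Rab33a, on chromosome X, also passed in that fit, lower in miR-431 (−0.30, limma adjusted p = 0.00884), at 0.205 ± 0.0315 FPKM in miR-431 and 0.492 ± 0.128 in miR-LacZ cells.

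None of the 7 genes of post-Golgi transport, the plasma membrane and the cilium passed, where 29.3% of all tested genes did. Rab8a, of transport to the plasma membrane and cilium, came nearest, at 42.4, 44.4, 46.2 and 47.3 FPKM in miR-431 and 48.6, 53.8, 57.2 and 52.6 in miR-LacZ libraries (−0.23, SE 0.081, limma adjusted p = 0.0569). It passed with a term for libraries 1 and 5 (limma adjusted p = 0.0192), without miR-LacZ 1 (0.0415), with array weights and with no level filter. Rab10 and Rab13, of glucose transporter and junction traffic, and Rab12, Rab23, Rab28 and Rab8b had fold changes between −0.23 and 0.24. Rab40b (chromosome 11, 121217434 to 121249565), a Rab with a SOCS box that binds ubiquitin ligases, rose, from a low level. It stood at 2.47, 2.003, 2.77 and 2.01 FPKM in miR-431 and 1.61, 1.54, 1.296 and 0.979 in miR-LacZ libraries (0.49, SE 0.123, limma adjusted p = 0.0143), and the fold change was 0.78 with a pseudocount of 0.01 and 0.31 with array weights. Its paralogue Rab40c did not pass (12.1 ± 0.778 FPKM in miR-431 against 12.8 ± 1.10 FPKM in miR-LacZ cells), so that Rab40b held 14.1% to 17.6% of the Rab40 level in miR-431 and 7.78% to 10.7% in miR-LacZ libraries.

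**Figure D3:**
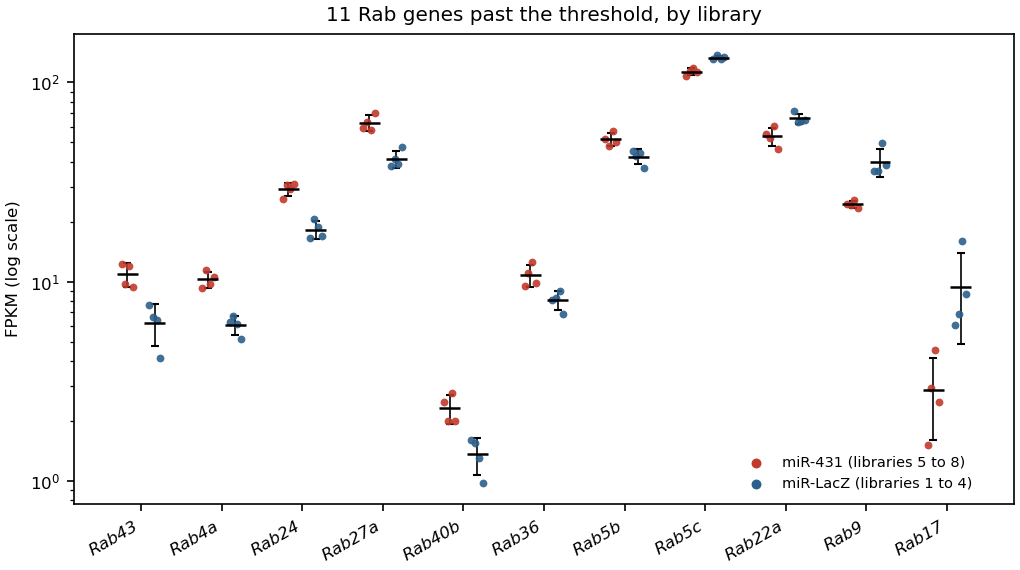
FPKM on a log axis of the 11 Rab genes past the threshold in each library (points), with group means and SD, miR-431 left of miR-LacZ and genes ordered by fold change. Rab43, Rab4a, Rab24, Rab27a and Rab40b show clear gaps upward and Rab9 and Rab17 downward, while Rab36, Rab5b, Rab5c and Rab22a are separated by narrow gaps.

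The remaining genes below the level tested were Rab26, Rab32, Rab38, Rab42 and Rab44. Rab26, of secretory granules, was at 0.880 ± 0.201 and 0.660 ± 0.174 FPKM in miR-431 and miR-LacZ cells. Rab32, of lysosome-related organelles such as melanosomes, was at 0.423 ± 0.0894 FPKM in miR-431 and 0.587 ± 0.138 in miR-LacZ cells. Its relative Rab38 was listed at 0 in all 8 libraries. Rab42 had means of 0.279 FPKM in miR-431 and 0.382 in miR-LacZ cells, and Rab44 was listed at 0 in 6 libraries and at 0.0125 FPKM or less in libraries 5 and 6.

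Many Rab transcripts were highest in the 2 libraries that stood apart. For 13 of the 47 tested Rab genes (27.7%), library 5 was the highest of the miR-431 libraries and library 1 the highest of the miR-LacZ libraries, which held for 16.5% of all tested genes. They were Rab1, Rab2a, Rab2b, Rab5a, Rab6a, Rab11a, Rab11b, Rab14, Rab18, Rab21, Rab23, Rab33b and Rab43. Rab2a shows the pattern most plainly, at 186, 141, 139 and 142 FPKM in miR-431 libraries 5 to 8 and 195, 150, 142 and 143 FPKM in miR-LacZ libraries 1 to 4. The reverse pattern, with 5 and 1 both lowest, held for 5 Rab genes (10.6%) and 18.1% of all tested genes. Within the pair of 5 and 1, 41 of the 47 tested Rab genes had the sign of their fold change over all libraries, though this pair is part of that fit. For the 11 called Rab genes the sign was fixed in advance, since their groups did not overlap. With a term for these libraries 17 Rab genes were called, and the 11 were among them. In the other 6 libraries alone 8 were called, all of them among the 11. The cause of the difference between libraries was not tested.

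**Figure D4:**
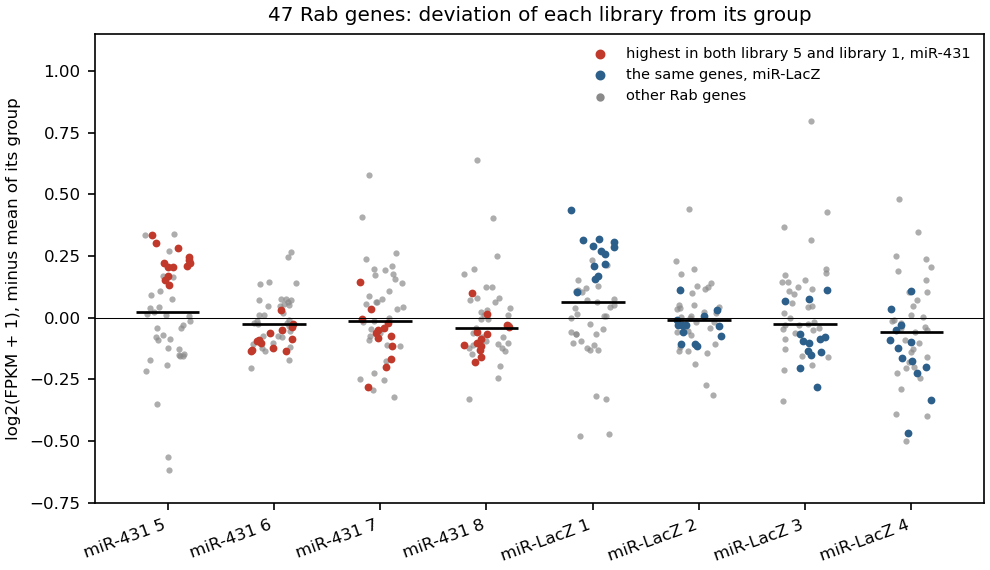
Difference of each library from its own group's mean on log2(FPKM + 1) for the 47 tested Rab genes (points; black bars are medians), miR-431 libraries on the left. Coloured points are the 13 genes that were highest in both library 5 and library 1, and they lie above 0 in those 2 libraries and mostly below it in the others.

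Of the genes that act with Rab3 and Rab27, Mlph and Sytl4 had larger fold changes than any tested Rab gene. Over 6 lists of Rab regulators and effectors, 102 of 118 genes were tested, of which 22 rose (21.6%, against 15.4% of all tested genes), 10 fell (9.80%, against 13.8%) and 70 did not pass. The list of Rab3 and Rab27 effectors also holds family members of such effectors, among them Rims3 and Unc13b. Of its 11 tested genes, 2 rose (18.2%) and 3 fell (27.3%, namely Sytl4, Rims3 and Unc13b), with a median of −0.01. Of all tested genes 15.4% rose and 13.8% fell. Sytl4, which encodes granuphilin, an effector that docks insulin granules through Rab27a, stood at 55.3, 77.3, 51.2 and 78.2 FPKM in miR-431 libraries, against 167, 225, 230 and 346 FPKM in miR-LacZ libraries. It fell by 1.85 on the log2 scale (SE 0.218, limma adjusted p = 0.000276), with every miR-431 library far below every control. Mlph, which encodes melanophilin, the Rab27a effector that ties melanosomes to myosin, stood at 4.18, 4.02, 2.27 and 5.82 FPKM in miR-431 and 0.154, 0.140, 0.123 and 0.218 in miR-LacZ libraries. It rose by 2.08 (SE 0.188, limma adjusted p = 5.99e-05), and the fold change was 4.55 with a pseudocount of 0.01. It reached 1 FPKM in all 4 miR-431 libraries and in no miR-LacZ library. The gene thus met the level for a test only through the group in which it was high. Mlph lies beside Rab17 on chromosome 1 (92811676 to 92847719), and the pair changed in opposite directions.

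Myrip, a related effector that links Rab27a granules to myosin, stood at 5.88, 5.71, 4.38 and 4.83 FPKM in miR-431 and 2.42, 2.77, 2.44 and 2.35 in miR-LacZ libraries (0.82, SE 0.103, limma adjusted p = 0.000399). Rims3, a small member of the RIM family of release site proteins, fell (10.6 ± 1.45 FPKM in miR-431 against 21.3 ± 8.34 FPKM in miR-LacZ libraries, −0.89, limma adjusted p = 0.0120), as did the priming gene Unc13b (−0.50, limma adjusted p = 0.00821). Rph3al, which encodes Noc2 and was as abundant as Sytl4 over all libraries, had values of 132 to 187 FPKM in miR-431 and 138 to 197 in miR-LacZ libraries (−0.01, limma adjusted p = 0.955). It did not pass, nor did Sytl5 and Rims2, with fold changes of −0.29 and 0.10. Of 7 tested exchange factors and GAPs for Rab3 and Rab27, 1 rose (14.3%, against 15.4% of all tested genes) and none fell. This was Rab3gap2 (19.5 to 20.1 FPKM in miR-431 and 13.97 to 16.9 in miR-LacZ libraries, 0.38, limma adjusted p = 0.00672), in a locus that overlaps Iars2 and several small RNA genes. Madd, an exchange factor for both Rabs, had a fold change of 0.34 and did not pass (limma adjusted p = 0.117).

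Among the genes for prenylation and escort, Chm fell. This gene, which encodes the escort protein REP1, stood at 13.9, 12.4, 12.96 and 13.1 FPKM in miR-431 and 28.8, 26.1, 31.6 and 29.5 in miR-LacZ libraries (−1.09, SE 0.083, limma adjusted p = 2.06e-05). Its neighbours on chromosome X were shifted by −0.68, and with their median removed it fell by 0.41 (limma adjusted p = 0.0202). Its autosomal relative Chml, whose 3′ UTR holds 2 matches to the 5p arm, did not pass (−0.39, limma adjusted p = 0.0678). The Chml match that is an 8mer is shown here for comparison with that of Rab5b.
Chml, 5p arm, 8mer: aggacagcgtGCAAGACAccgagactct

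Gdi2, Rabggtb, Rabggta and Rabif did not pass, although the groups did not overlap for Gdi2 (0.32, limma adjusted p = 0.0730) and Rabggtb (0.34, limma adjusted p = 0.0520).

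**Figure D5:**
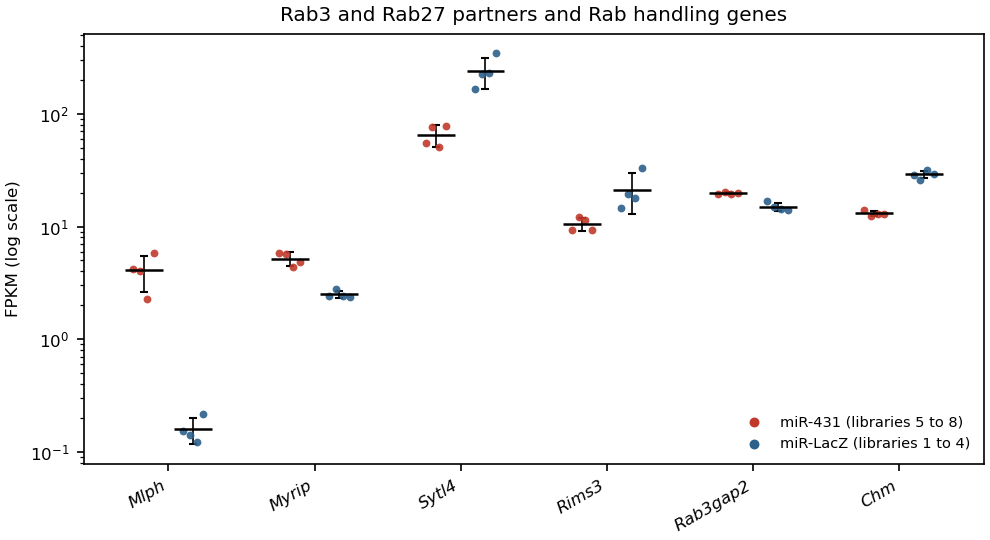
FPKM on a log axis of 6 genes listed with Rab3 and Rab27 or with Rab escort in each library (points), with group means and SD, miR-431 left of miR-LacZ. Mlph (4.07 FPKM in miR-431, 0.159 FPKM in miR-LacZ), Myrip and Rab3gap2 are higher in miR-431, and Sytl4 (65.5 FPKM in miR-431, 242 FPKM in miR-LacZ), Rims3 and Chm are lower.

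Regulators of other Rabs changed in both directions. Of 22 other exchange factors, 9 rose (40.9%, against 15.4% of all tested genes) and 1 fell (4.55%, against 13.8%), with a median of 0.21, against −0.005 over all tested genes. Around the 9, the neighbouring medians lay between −0.36 (Rin2) and 0.51 (Mon1b, whose own fold change was 0.43). How many of the 9 calls hold with that median removed is not given here. Dennd2a rose most (5.08 ± 1.74 FPKM in miR-431 against 1.46 ± 0.617 FPKM in miR-LacZ libraries, 1.299, limma adjusted p = 0.00208), followed by Dennd4b (0.64, limma adjusted p = 0.000891), the Rab5 exchange factor gene Rin2 (0.60, limma adjusted p = 0.00253) and Dennd4a (0.60, limma adjusted p = 0.0178). With the neighbouring median removed, Dennd4b stood at 0.37 and Rin2 at 0.96, both still called. Of 32 other genes listed as GAPs, 6 rose (18.8%) and 4 fell (12.5%), shares near those of all tested genes. Their median was 0.08, and whether each product acts as a GAP was not checked. Tbc1d8 (19.3 ± 2.48 FPKM in miR-431 against 6.75 ± 1.68 FPKM in miR-LacZ libraries, 1.41, limma adjusted p = 0.000242), Tbc1d24 (1.04, limma adjusted p = 0.00116) and Sgsm1 (0.67, limma adjusted p = 0.00505) rose, and Evi5l fell (−0.69, limma adjusted p = 0.000665). Tbc1d8 overlaps Rpl31 in the table, and Tbc1d24 overlaps Ntn3.

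Of 23 other effectors, 3 rose (13%) and 1 fell (4.35%), where 15.4% and 13.8% of all tested genes did. The Rab11 effector genes moved apart, with Rab11fip4 at 0.932 ± 0.0922 FPKM in miR-431 and 2.57 ± 0.594 in miR-LacZ cells (−0.87, or −1.44 with a pseudocount of 0.01, limma adjusted p = 0.000687 and 0.000569) and Rab11fip3 at 12.3 ± 0.489 FPKM in miR-431 and 9.27 ± 0.286 in miR-LacZ cells (0.38, limma adjusted p = 0.00435). Zfyve20, which binds Rab4 and Rab5, and Micall1, an effector at recycling tubules, rose by 0.28 and 0.31 (limma adjusted p = 0.0336 and 0.0309). With the neighbouring median removed, the calls of Dennd4a, Evi5l, Rab11fip3, Zfyve20 and Micall1 ended, at 0.32, −0.18, 0.11, 0.04 and 0.05 (limma adjusted p = 0.176, 0.179, 0.351, 0.772 and 0.782). With a single library omitted, the call of Zfyve20 ended in 7 of 8 fits (it held only when miR-LacZ 1 was omitted). That of Micall1 ended when miR-431 6, 7 or 8 or miR-LacZ 3 or 4 was omitted, without libraries 1 and 5 (0.0536) and with quantile normalization (0.0704).

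The 3′ UTR match to the 5p arm was present in 9 of 101 tested regulators and effectors (8.91%, against 6.53% of all tested genes). Of the 9, 4 rose (Rin2, Tbc1d2b, Mon1b and Dennd5b), with fold changes between 0.39 and 0.62, and none fell at the threshold. Their neighbours were shifted by −0.36, 0.21, 0.51 and −0.05 in that order. Of all tested regulators and effectors 21.6% rose and 9.80% fell, and of all tested genes 15.4% and 13.8%. The share called among all tested genes with a match was not counted, so no link of the match with direction can be read from these 9.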

How the data were processed

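The authors deposited 1 table of FPKM values in 8 columns, 1 for each library, and loci in mm9. Per the submitters' processing notes, CASAVA 1.8.2, cutadapt, TopHat2 2.0.11, Cufflinks 2.1.1 and mm9 were used, with no role or order given. FPKM keeps no read counts, so no count test was run, no counting interval is given and close Rab paralogues may share reads to an unknown extent.

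The test was limma 3.58.1 (R 4.3.3) on log2(FPKM + 1), fitted with a trend and no covariate to genes with at least 4 libraries at 1 FPKM or more, and p-values were adjusted by Benjamini-Hochberg over all 11807 genes. This scale understates changes of low genes. The limma script was tested on simulated data. Neighbouring medians were taken over windows of 31 tested genes along the chromosome, without the gene itself. Alternatives changed the pseudocount (0.1 and 0.01), the filter (none or 5 FPKM), scaling, trend and weights, left out each library, and handled libraries 1 and 5. Exact permutation tests used all 70 assignments of the 8 libraries to 2 groups of 4.

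The members, gene lists and alternatives were chosen with earlier results of these data known. Named are the exocytosis Rabs, called Rab genes, the 5 highest Rab genes, those not tested, and up to 4 called genes for each list. A gene that the rule names is not reported here. Other genes, such as Rab1b, Rab8a, paralogues, Unc13b and Chml, were named after their values were seen. Of 23309 genes, 20064 were matched by RefSeq accession or symbol to a 3′ UTR of GENCODE M21, whose build is not mm9, so it gave sequence and length only. The transcript with the longest 3′ UTR was used. Figures used Python 3.11.15, pandas 2.3.3, numpy 2.4.6 and matplotlib 3.10.9.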

Additional observations from a re-analysis of the deposited data

Results flagged for a closer look

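In 94 groups of 4 libraries (47 tested Rab genes in miR-431 and in miR-LacZ cells), a single library lay far from the other 3 in 9 cases, where the rule alone marks about 1 group in 20. Of the 9, 5 were in library 5 and 3 in library 1. In miR-431 library 5, the highest of its group, Rab2a was at 186 FPKM (the others 139 to 142), Rab14 at 84.4 (67.8 to 69.4), Rab6a at 54.8 (41.5 to 42.4), Rab5a at 42.7 (34.2 to 35.0) and Rab11b at 21.9 FPKM (19.0 to 19.4). In miR-LacZ library 1, Rab2a at 195 FPKM (142 to 150) and Rab6a at 49.9 FPKM (38.3 to 40.1) were the highest of their group, and Rab13 at 4.57 FPKM (6.43 to 6.53) the lowest. The remaining one was Rab35 in miR-LacZ library 3, the lowest of its group at 31.8 FPKM (35.7 to 36.0). Rab2a and Rab6a, marked in both groups, did not pass the comparison of groups. Why these libraries stand apart was not tested.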

How the results depend on the processing

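Of the 11 Rab calls, those of Rab17, Rab24, Rab27a and Rab43 held in all 19 alternatives and that of Rab40b in all 18 in which it could be tested, while those of Rab5b, Rab5c and Rab22a held in 10, 9 and 9 of 19. Some counts moved by over 1.5 times, namely those with array weights, those of falling Rab genes in some fits and 1 at a filter of 5 FPKM. With array weights, 5845 genes were called in all, 12 Rab genes rose and 11 fell, and 36 of the listed Rab regulators and effectors rose and 17 fell. The 4 falling Rab genes became 7 with no level filter, 8 with a term for libraries 1 and 5, 2 without these libraries and 2 to 4 with 1 library fewer. At a filter of 5 FPKM, 13 regulators and effectors rose, in a smaller set of genes tested. The count over all genes moved less when 1 library was left out, with 2480 to 3350 calls against 3454. With the neighbouring median removed, 9 Rab genes were called, 5 of them among the 11, without Rab4a, Rab5b, Rab5c, Rab9, Rab22a and Rab36. The causes were not tested. No called Rab gene changed direction, nor did Dab2ip or the up to 4 called genes followed for each list. Other called genes named here, such as Mon1b, were not followed through the alternatives. No paired analysis was possible because the groups share no replicate number. Depth is unknown, so the limit it sets on Rab genes below 1 FPKM cannot be stated.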

Other observations

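A few Rab-like genes fall outside the naming pattern of the 57 and were picked after their values were seen. Rab7l1, the gene of the protein now called Rab29, lay below the level tested, at 0.0477, 0, 0.0296 and 0.0265 FPKM in miR-431 and 0.269, 0.267, 0.346 and 0.104 FPKM in miR-LacZ libraries, with no overlap. Rabl5, which encodes a subunit of intraflagellar transport, stood at 34.1, 35.9, 36.5 and 39.4 FPKM in miR-431 and 46.8, 54.6, 58.9 and 46.1 FPKM in miR-LacZ libraries (log2 fold change −0.49, limma adjusted p = 0.00547), beside neighbours shifted by −0.24. Rabl2, Rabl3 and Rabl6 had fold changes of 0.20, −0.38 and 0.19 (limma adjusted p = 0.255, 0.0857 and 0.327), none past the threshold. Rabac1, a Rab-binding membrane protein gene, stood at 138 ± 26.6 and 105 ± 27.1 FPKM in miR-431 and miR-LacZ cells and did not pass (0.42, limma adjusted p = 0.141).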
